A study of Mus musculus with 16 samples.

Results

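The high mobility group (HMG) chromatin proteins were taken as a list of 8 gene symbols (Hmga1, Hmgb1, Hmgb2, Hmgb3, Hmgn1, Hmgn2, Hmgn3 and Hmgn5), of which 7 have a row among the 14498 genes of the matrix. Hmga1 was not analysed here. The list was not chosen on a threshold, and the levels of its members are described across cycling and postmitotic cell classes. The data are single-cell RNA counts from the forebrain of wild-type CD1 mouse embryos at embryonic day 15.5, made with the SureCell droplet kit of Illumina and Bio-Rad. The 16 samples carry the same strain, genotype and tissue labels, no treatment is given, and their cells stand in 1 pooled matrix with no map from cells to samples. There is therefore 1 sample, no test between samples was possible, and every interval below is a 95% interval that covers counting error only.

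HMG proteins are small, abundant nuclear proteins that bind DNA or nucleosomes without reading a specific sequence. HMGB proteins bend DNA through paired HMG boxes, HMGN proteins bind the nucleosome core and counteract linker histones, and HMGA proteins bind AT-rich DNA through AT hooks. In the embryonic forebrain, radial glia divide at the ventricle, give rise to intermediate progenitors, and these to migrating and then layered excitatory neurons, while progenitors of the ganglionic eminences give rise to interneurons and striatal neurons.

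Windows of the 250 bases before a RefSeq start of the gene, on build GRCm38.p6 (mm10), were found for 6 of the 7 measured genes. The Hmgn2 window and both Hmgb1 windows lie inside the GENCODE spans given below, downstream of the annotated start of the gene. The 4 printed here are those of Hmgb2 and Hmgb3, which were higher in radial glia-like cells rich in cell cycle RNA, and of Hmgn1 and Hmgn2, which did not reach a 1.5-fold difference there. Capitals mark CCAAT (the CCAAT box) and TTTGAA (a form of the cell cycle homology region), on either strand.
Hmgb2, chr8:57511593-57511842, plus strand: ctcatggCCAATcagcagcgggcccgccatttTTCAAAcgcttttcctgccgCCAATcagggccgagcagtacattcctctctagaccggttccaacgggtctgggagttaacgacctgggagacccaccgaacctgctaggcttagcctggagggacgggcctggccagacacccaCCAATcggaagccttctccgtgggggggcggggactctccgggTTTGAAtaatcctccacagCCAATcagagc
Hmgb3, chrX:71555667-71555916, plus strand: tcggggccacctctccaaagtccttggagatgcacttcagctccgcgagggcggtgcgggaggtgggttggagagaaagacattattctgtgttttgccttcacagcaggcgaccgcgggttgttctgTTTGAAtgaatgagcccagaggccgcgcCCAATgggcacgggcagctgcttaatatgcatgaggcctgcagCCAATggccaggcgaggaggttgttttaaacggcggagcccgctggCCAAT
Hmgn1, chr16:96127726-96127975, minus strand: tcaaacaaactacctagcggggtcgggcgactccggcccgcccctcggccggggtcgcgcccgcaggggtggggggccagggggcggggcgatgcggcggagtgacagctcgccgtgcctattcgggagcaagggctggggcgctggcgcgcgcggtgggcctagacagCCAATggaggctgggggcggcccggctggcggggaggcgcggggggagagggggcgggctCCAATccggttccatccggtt
Hmgn2, chr4:133967992-133968241, minus strand: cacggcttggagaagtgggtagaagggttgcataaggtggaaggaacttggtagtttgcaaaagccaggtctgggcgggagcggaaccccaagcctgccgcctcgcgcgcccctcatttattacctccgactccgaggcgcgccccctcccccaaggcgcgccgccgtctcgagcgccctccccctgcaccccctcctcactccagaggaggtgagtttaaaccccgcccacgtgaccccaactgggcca
The Hmgb2 window held 4 CCAAT and 2 TTTGAA matches, and the Hmgb3 window held 3 and 1. The Hmgn1 window held 2 CCAAT and 0 TTTGAA matches, the Hmgn2 window held neither, the Hmgn5 window 2 CCAAT, and the more upstream of both Hmgb1 windows 3 CCAAT and 0 TTTGAA and the other neither. Among all 32851 RefSeq windows of this length, 33.8% held CCAAT, 15.99% held TTTGAA, and 5.55% held both. At least 2 CCAAT were in 10.1%, at least 3 in 2.79%, and at least 3 together with TTTGAA in 0.381%. The limit of 3 equals the Hmgb3 count, so the last share is no test of these windows. The motifs TTCGAA, TTTGGCGC, TTTCCCGC and GGCGGGAA were searched as well, on both strands, and none was in a member's window. The grouping of these windows rests on the 1.5-fold limit in the radial glia-like split alone, which does not separate Hmgb3 from Hmgn2. Hmgb3 was 1.52-fold higher there (1.13 to 2.09), and fell under the limit in several other settings given below. Hmgn2 was 1.23-fold higher there, with 6 counted RNA molecules in the cells poor in cell cycle RNA. The Hmgn2 interval spans that of Hmgb3. Within intermediate progenitor-like cells Hmgn2, with neither motif, was 2.82-fold and Hmgb3 1.60-fold higher in cells rich in cell cycle RNA. The motifs were chosen with the levels known, no match overlaps another, and a match describes letters and not a bound site.

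By GENCODE annotation on mm10, Hmgb1 lies on chromosome 5 (149046702 to 149184489, minus strand), Hmgb2 on chromosome 8 (57511907 to 57515999, plus strand) and Hmgb3 on chromosome X (71555918 to 71560676, plus strand). Hmgn1 lies on chromosome 16 (96120618 to 96127729, minus strand), Hmgn2 on chromosome 4 (133964738 to 133968650, minus strand), Hmgn3 on chromosome 9 (83109948 to 83146685, minus strand) and Hmgn5 on chromosome X (109004534 to 109013404, minus strand). All 7 are protein-coding. Hmgb1 values are uncertain, because its annotated span overlaps Uspl1 and the pseudogene Gm8615 and 13 further genes carry its name as copies. Hmgb3 and Hmgn2 each have 1 such copy. The copy Hmgb1-rs17 has its own row, with 171 unique molecular identifiers (UMIs, the counted RNA molecules), against 2023 for Hmgb1.

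The matrix held 5777 cells and 21609944 UMIs, with 1111 to 17398 UMIs per cell and a median of 3258. After 4 cells rich in globin RNA were set aside, 5773 cells fell into 25 clusters, drawn without the HMG genes and without the cell cycle lists. Marker genes gave names to 21 clusters, and 4 clusters with 725 cells stayed unnamed. The named progenitor classes were radial glia-like (752 cells), intermediate progenitor-like (516) and ganglionic eminence progenitor-like (237). The main neuron classes were migrating excitatory neuron-like (931), excitatory neuron-like (1281), interneuron-like (761) and striatal neuron-like (275). The cells also stood in 2 consecutive runs of 3651 and 2122 cells, which the labels do not explain, and 223 of the 237 ganglionic eminence progenitor-like cells were in the first. The first was taken to end at the last cell with a UMI of the Y-linked genes Ddx3y, Eif2s3y, Uty or Kdm5d. The second was taken to start at the first cell with a UMI of the 11 genes listed after the alphabetical order. It therefore holds no UMI of those Y-linked genes. The cluster borders depend on numerical settings: repeating the clustering in single precision placed 88.9% of cells in the same class, and repeating it with another random seed 83.1%. The ganglionic eminence progenitor-like class held 199 cells in the former and 466 in the latter.

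All 7 measured HMG genes were lower in excitatory neuron-like than in radial glia-like cells by at least 1.5-fold, the difference called here, against 30.6% of the 10369 genes that reached 50 UMIs in both classes together. Their median log2 ratio was -1.97, and that of all these genes was -0.14. No member was higher, against 23.8% of genes. Levels are in CPM, the UMIs of a gene divided by all UMIs of its class, on the scale in which all genes of a class sum to 1000000. The sizes ran from 38.7-fold for Hmgb2 to 1.74-fold for Hmgb1. Hmgb2 and Hmgn3 were already lower in intermediate progenitor-like cells, whereas Hmgn5 was level between both cortical progenitor classes and lower from the migrating cells on.

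**Figure D1:**
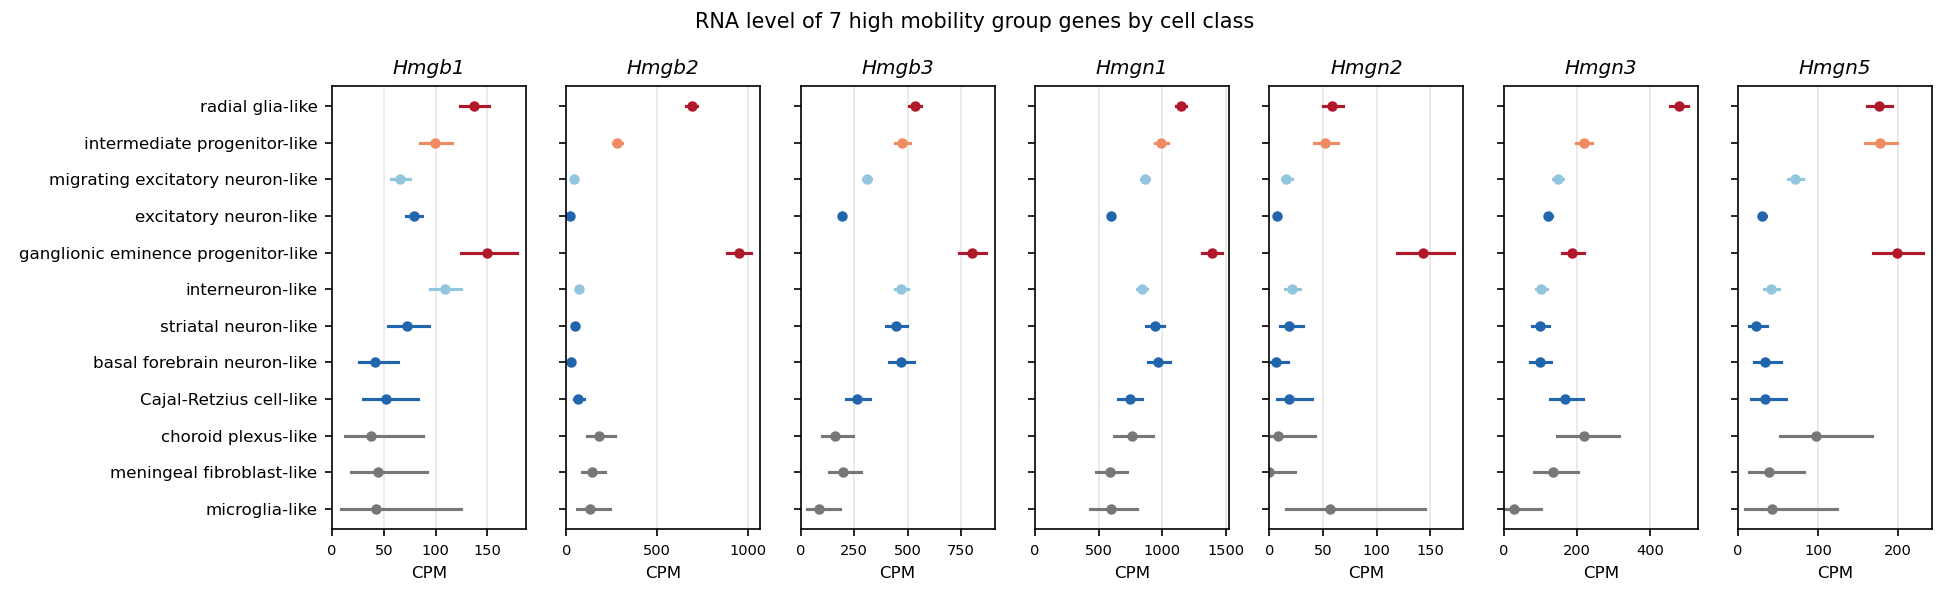
RNA level of each measured HMG gene in CPM (horizontal axis, from 0 and scaled per gene) in 12 cell classes (rows). Points are class sums and bars exact Poisson 95% intervals; red and orange are progenitors, blue are neurons and grey are other cells. In the main clustering, ganglionic eminence progenitor-like cells stand highest for Hmgb2 (949 CPM), Hmgb3, Hmgn1 and Hmgn2, and radial glia-like cells for Hmgn3 (480 CPM).

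Hmgb2, a DNA-bending protein linked to proliferating cells, was the member that differed most. It stood at 949 CPM (interval 884 to 1019, 774 UMIs) in ganglionic eminence progenitor-like cells, 691 CPM (661 to 723) in radial glia-like cells and 280 CPM (255 to 306) in intermediate progenitor-like cells. It stood at 72.1 CPM in interneuron-like, 45.3 in striatal neuron-like, 44.4 in migrating excitatory neuron-like and 17.9 CPM (14.6 to 21.6, 104 UMIs) in excitatory neuron-like cells. The 3 progenitor classes were above every neuron class, and their intervals did not overlap with each other or with those of the neurons. The order of the upper 2 depends on the clustering: over all settings the ganglionic eminence progenitor-like level was 1.05 to 1.77 times the radial glia-like level. After each cell was thinned to 1000 UMIs, 43.0% of radial glia-like and 1.25% of excitatory neuron-like cells had an Hmgb2 UMI, and unthinned 70.5% and 6.95%, at median depths of 3306 and 4411 UMIs. The excitatory neuron-like level was 2.58% of the radial glia-like level. The same percentage was 1.53 to 9.74% for 11 radial glia markers (Ptprz1, at 112%, aside), which spans that value. The folds given for Hmgb2 are those of the UMIs as counted, and the part of free RNA, doublets or misplaced cells in the neurons' UMIs was not tested.

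Hmgb3, the X-linked HMGB gene, stood higher in ventral than in excitatory neuron classes, though below ganglionic eminence progenitor-like cells. Its level was 802 CPM (742 to 866) in ganglionic eminence progenitor-like, 535 (509 to 563) in radial glia-like and 475 (443 to 510) in intermediate progenitor-like cells. Interneuron-like, basal forebrain neuron-like and striatal neuron-like cells stood at 470, 469 and 448 CPM. Migrating excitatory neuron-like cells stood at 309 (290 to 329) and excitatory neuron-like cells at 195 (184 to 207) CPM. The intervals of the classes from radial glia-like down to striatal neuron-like overlapped with the next in order, and both excitatory neuron classes were below all of them.

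Hmgb1, the general HMGB protein that is also released as an extracellular signal, varied least across the main classes among the HMGB genes. It stood at 150 CPM (124 to 179) in ganglionic eminence progenitor-like, 137 (124 to 152) in radial glia-like, 109 in interneuron-like and 99.3 in intermediate progenitor-like cells. Excitatory neuron-like, striatal neuron-like and migrating cells stood at 78.8, 72.0 and 65.4 CPM. Every class overlapped with the next in this order. The 1.74-fold difference (1.52 to 1.998) between radial glia-like and excitatory neuron-like cells was 1.43-fold in the first run of cells alone, which is under the limit, and 2.17-fold in the second.

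Hmgn1, a nucleosome-binding protein, was detected in 86.1% of all cells. Ganglionic eminence progenitor-like cells stood at 1391 CPM (1311 to 1474), radial glia-like at 1147 (1108 to 1187), intermediate progenitor-like at 995 (947 to 1044) and excitatory neuron-like at 599 (579 to 619). Striatal neuron-like, migrating and interneuron-like cells lay between, at 945, 863 and 842 CPM. Excitatory neuron-like cells were below radial glia-like cells by 1.92-fold (1.83 to 2.01), and no single step along the cortical lineage reached 1.5-fold. The steps to intermediate progenitor-like and to migrating cells were 1.15-fold each. The step from migrating to excitatory neuron-like cells was 1.44-fold, and 1.39 to 1.65-fold over all settings.

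Hmgn2, a close relative of Hmgn1, had few UMIs (611 over all 5773 cells). It stood at 144 CPM (119 to 172, 117 UMIs) in ganglionic eminence progenitor-like cells, 58.6 (50.02 to 68.2) in radial glia-like and 51.8 (41.4 to 63.9) in intermediate progenitor-like cells. The 4 main neuron classes stood at 7.04 to 20.6 CPM. The ganglionic eminence progenitor-like level was 2.45-fold (1.92 to 3.12) that of radial glia-like cells, against 12.1% of 8798 genes at least 1.5-fold higher in that comparison, and excitatory neuron-like cells were 8.32-fold (5.88 to 12.01) below radial glia-like cells. Hmgn2 was the only 1 of 7 members called higher in the former comparison, which is close to that share.

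Hmgn3, an HMGN gene expressed in several differentiated tissues including glia, had an order of its own. Radial glia-like cells stood at 480 CPM (455 to 506, 1360 UMIs), above every other class with no overlap. Intermediate progenitor-like cells stood at 219 (197 to 243) and ganglionic eminence progenitor-like cells at 188 (159 to 220). Migrating, excitatory, interneuron-like and striatal neuron-like cells stood at 148, 122, 103 and 99.98 CPM. It was the only measured member whose level in ganglionic eminence progenitor-like cells was at least 1.5-fold below radial glia-like cells, by 2.56-fold (2.16 to 3.04), against 22.6% of 8798 genes. A count of 1 of 7 is not above that share, and the comparison was added after its values were seen.

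Hmgn5, an X-linked HMGN gene with a long acidic tail, was high in all 3 progenitor classes. It stood at 199 CPM (169 to 232) in ganglionic eminence progenitor-like, 178 (158 to 200) in intermediate progenitor-like and 176 (161 to 193) in radial glia-like cells, with overlapping intervals. Migrating cells stood at 71.6 (62.4 to 81.6), interneuron-like at 40.7, excitatory neuron-like at 30.4 (26.1 to 35.2) and striatal neuron-like at 22.7 CPM. Excitatory neuron-like cells were 5.80-fold (4.88 to 6.93) below radial glia-like cells.

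The steps of the cortical lineage differed in which members were lower. From radial glia-like to intermediate progenitor-like cells 2 of 7 were lower, Hmgb2 by 2.47-fold (2.23 to 2.74) and Hmgn3 by 2.19-fold (1.95 to 2.47), against 19% of 9261 genes. That count is close to the background share. In the next sentences the counts are those of later steps. From intermediate progenitor-like to migrating excitatory neuron-like cells 5 of 7 were lower, against 15.8% of 8966 genes. Hmgb2 was 6.31-fold (5.20 to 7.69), Hmgn2 3.33-fold (2.31 to 4.84) and Hmgn5 2.49-fold (2.08 to 2.98) lower, while Hmgb3 at 1.54-fold, Hmgb1 at 1.52-fold and Hmgn3 at 1.48-fold stood close to the limit on either side. From migrating to excitatory neuron-like cells 4 of 7 were lower, against 13.4% of 9933 genes: Hmgb2 by 2.48-fold, Hmgn5 by 2.35-fold, Hmgn2 by 2.21-fold and Hmgb3 by 1.58-fold. No member was at least 1.5-fold higher at any of these 3 steps, where 12.3%, 12.1% and 15.6% of genes were. Taking both runs of cells apart, 27 of the 28 ratios of these 3 steps and of radial glia-like against excitatory neuron-like cells had the same direction in each, and 5 were over 1.5 times apart between the runs.

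**Figure D2:**
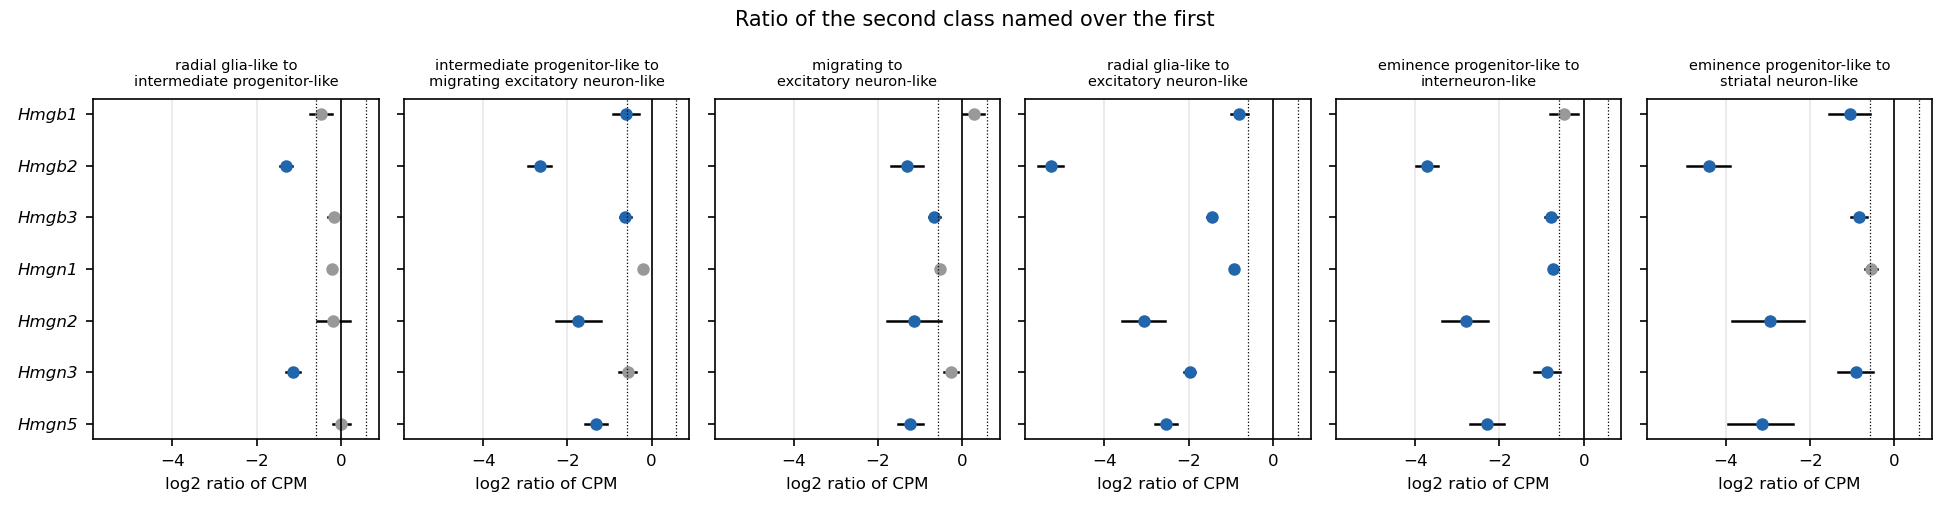
The log2 ratio of CPM (horizontal axis), later over earlier class of each panel title, for each measured HMG gene (rows) in 6 comparisons (panels). Bars are exact 95% intervals, dotted lines mark 1.5-fold, and blue points are past it. Hmgb2 stands farthest left in every panel, reaching -5.27 in the panel of radial glia-like against excitatory neuron-like cells.

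In the ventral lineage the same members stood apart in size. From ganglionic eminence progenitor-like to interneuron-like cells 6 of 7 were lower, against 18.9% of 7842 genes: Hmgb2 by 13.2-fold (10.99 to 15.9), Hmgn2 by 6.97-fold (4.83 to 10.2), Hmgn5 by 4.88-fold (3.71 to 6.48), and Hmgn3, Hmgb3 and Hmgn1 by 1.82-, 1.71- and 1.65-fold. Hmgb1 had a ratio of 0.726. Under other settings Hmgb2 ranged from 10.8-fold with single-precision clustering to 37.2-fold with 15 principal components, Hmgn2 from 5.30-fold in the first run of cells alone to 16.7-fold with 15 components, and Hmgn5 from 3.696-fold in the first run to 18.5-fold without cycle-following genes among the clustering features. In that last setting Hmgb3, at 1.496-fold, was just under the limit. From the same progenitors to striatal neuron-like cells 6 of 7 were lower, against 21.1% of 6177 genes, with Hmgb2 at 20.9-fold (14.9 to 30.5), Hmgn5 at 8.77-fold (5.31 to 15.4) and Hmgn2 at 7.69-fold (4.40 to 14.5). Hmgn1 was at 1.47-fold and Hmgb3 at 1.79-fold. Without cycle-following genes among the features Hmgb2 was 5.94-fold and Hmgn2 3.98-fold lower, and Hmgb3, at 1.13-fold, was no longer called. With another random seed Hmgb3 was at 1.46-fold and Hmgn5 at 5.87-fold, and with members and lists allowed as features Hmgb2 was at 30.7-fold and Hmgn5 at 15.8-fold. Both comparisons share the progenitor cells.

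Levels were then set against the amount of cell cycle RNA in the same cell. The full lists of 40 S phase and 51 G2 and M phase genes gave a median of 2 UMIs per 1000 even in excitatory neuron-like cells and left 2 radial glia-like cells at 0. A core of 61 list genes at least 10-fold lower in excitatory neuron-like cells, which holds no HMG gene, was therefore added after the data were seen. With it 83.2% of radial glia-like, 95.4% of ganglionic eminence progenitor-like, 32.2% of intermediate progenitor-like and 2.11% of excitatory neuron-like cells had at least 3 core UMIs per 1000. Near that limit, 85 radial glia-like and 86 intermediate progenitor-like cells had 2 or 3.

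Within radial glia-like cells, Hmgb2 was 5.598-fold (3.49 to 9.63) and Hmgb3 1.52-fold (1.13 to 2.09) higher in the 626 cells with at least 3 core UMIs than in the 41 cells with 0, against 23.3% of 7957 genes, and no member was lower, against 17.8%. A count of 2 of 7 is close to that background share. Hmgb3 stood close to the limit and ranged from 1.26 to 1.83-fold under other settings, falling under the limit with 1000 features, with members and lists as features, without cycle-following genes, with another random seed, without the 5% highest doublet scores, with clusters from a random part of the UMIs and with another random thinning. Hmgb2 ranged from 4.62-fold in the first run of cells alone to 13.2-fold with 1000 features. By the core UMIs in the cell (0, 1 to 2, 3 to 9, 10 to 19, and 20 or more), Hmgb2 stood at 139, 206, 460, 900 and 1250 CPM. Hmgn1 stood at 1133, 1160, 1169, 1130 and 1139 CPM over the same bins, and Hmgn3 at 505, 366, 469, 493 and 558 CPM. Hmgb2 thus increased from bin to bin, and the intervals of Hmgn1 overlapped over all 5 bins. Hmgb3 went from 367 to 600 CPM from the first to the last bin, Hmgn5 from 147 to 236 and Hmgn2 from 48.9 to 89.3. For Hmgn5 and Hmgn2 the intervals of these outer bins overlapped. Hmgn5 was lowest at 1 to 2 core UMIs, at 99.6 CPM (66.2 to 144). That interval lay below those at 10 to 19 (172 to 224) and at 20 or more (185 to 296). The median depth of the cells went from 2486 to 4055 UMIs over these bins, and its part in the values was not tested.

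Within intermediate progenitor-like cells the same split called 5 of 7 members higher, against 11.1% of 5290 genes, and 0 lower, against 10.1%. Hmgb2 was 9.31-fold (6.63 to 13.4), Hmgn2 2.82-fold (1.61 to 5.21), Hmgb1 2.23-fold (1.52 to 3.32), Hmgb3 1.60-fold (1.35 to 1.91) and Hmgn5 1.59-fold (1.21 to 2.10) higher in the 166 cells with at least 3 core UMIs than in the 191 with 0. Hmgn3 at 1.36-fold and Hmgn1 at 1.30-fold were under the limit. In the first run of cells alone Hmgb2, at 6.50-fold, and Hmgn2, at 1.88-fold (0.835 to 4.77), reached the limit, while Hmgn3, Hmgn1, Hmgb1 at 1.31-fold, Hmgb3 at 1.39-fold and Hmgn5 at 1.23-fold did not. In the second run Hmgb2 was 13.2-fold, Hmgn2 4.42-fold, Hmgb1 3.95-fold, Hmgn5 2.11-fold and Hmgb3 1.898-fold higher. With the full lists, as first planned, 29 cells had 0 UMIs and 3 members were called, Hmgb2 at 4.89-fold (2.23 to 13.4), Hmgn2 at 2.41-fold (0.642 to 20.3) and Hmgb1 at 1.80-fold (0.753 to 5.64), against 23% of 5484 genes. Over the 5 bins of core UMIs Hmgb2 stood at 64.9, 116, 315, 775 and 1481 CPM, and Hmgn5 at 153, 124, 201, 267 and 373 CPM. Against radial glia-like cells of the same bin, Hmgb2 was lower without overlap at 1 to 2 and 3 to 9 core UMIs. Its intervals overlapped at 0, at 10 to 19 and at 20 or more. Hmgn3 was lower without overlap in all 5 bins, with 254 CPM at 10 to 19 and 165 CPM at 20 or more. The class holds 2 clusters, of 442 cells with 130 CPM of Hmgb2 and of 74 cells with 965 CPM, the latter richer in cell cycle RNA.

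**Figure D3:**
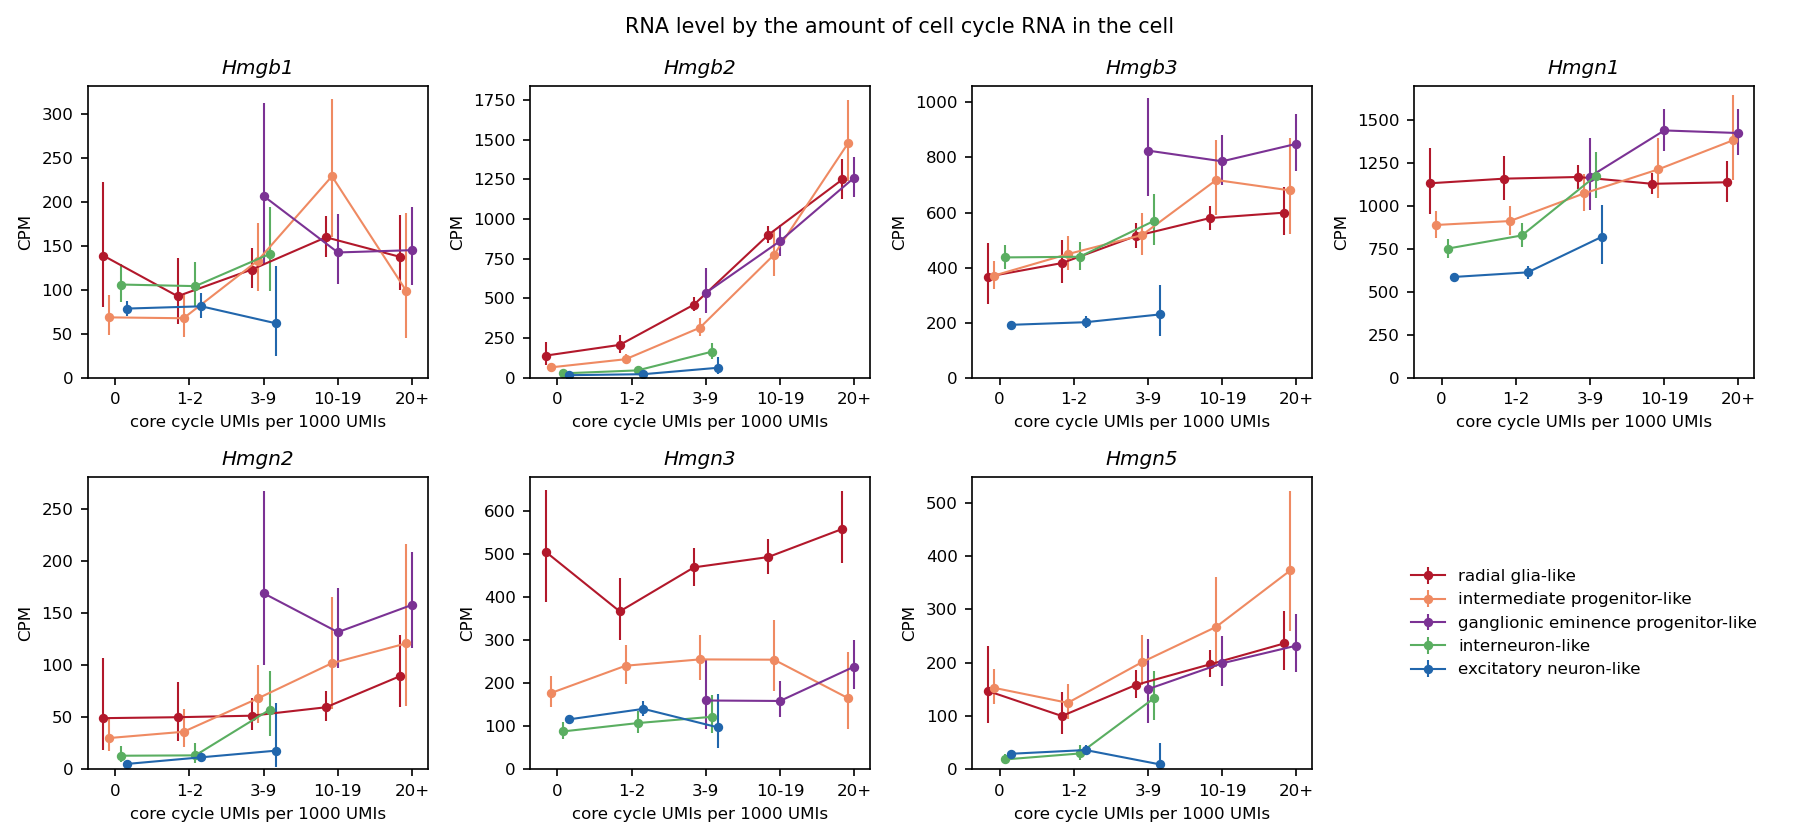
CPM of each measured HMG gene (vertical axis, from 0) by the number of core cell cycle UMIs per 1000 UMIs of the cell (horizontal axis), for 5 classes (colours); bars are exact Poisson 95% intervals and bins under 20 cells are not drawn. Hmgb2 climbs in every class drawn, to 1250 CPM in radial glia-like cells, while the radial glia-like line of Hmgn1 stays between 1130 and 1169 CPM.

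Members also differed between cells limited to low or to high core UMIs. Cell cycle RNA was not equal between the classes in these groups, and its part in the differences was not tested. Among cells with 0 core UMIs, 41 radial glia-like and 875 excitatory neuron-like, 6 of 6 measured members were lower in the neurons, against 28.9% of 8575 genes. Hmgb2 was 9.15-fold (5.01 to 15.9), Hmgn5 5.09-fold (2.92 to 8.41), Hmgn3 4.37-fold (3.30 to 5.70), Hmgn1 1.93-fold (1.62 to 2.29), Hmgb3 1.91-fold (1.38 to 2.58) and Hmgb1 1.77-fold (1.02 to 2.87) lower, and Hmgn2 had too few UMIs. The Hmgb1 ratio turned to the other direction in 2 other clusterings, given in the closing section. In the same cells 4 of 4 measured core genes were also lower in the neurons (median log2 ratio -1.32). Of 17 S phase genes 11 were lower and 2 higher, and of 12 G2 and M phase genes 6 were lower and 4 higher. Among cells with at least 10 core UMIs, 351 radial glia-like and 191 ganglionic eminence progenitor-like, Hmgn2 was 2.18-fold (1.63 to 2.92) higher in the latter, against 12.3% of 7375 genes, and Hmgn3 2.60-fold (2.16 to 3.15) lower, against 20%. Counts of 1 of 7 members higher and 1 of 7 lower are close to these background shares. The Hmgb2 ratio was 1.07 (0.979 to 1.17) there, and 1.37 over all cells of both classes. Of 51 G2 and M phase genes 8 were higher and 0 lower in these ganglionic eminence progenitor-like cells (median log2 ratio 0.30). Of 38 S phase genes 4 were higher and 2 lower. Of the cells compared, 73 radial glia-like and 85 ganglionic eminence progenitor-like had 20 or more core UMIs. In the first run of cells alone, with 226 and 178 cells, Hmgn2 was 2.09-fold (1.49 to 2.94) higher and Hmgn3 2.53-fold lower, with an Hmgb2 ratio of 1.10 (0.996 to 1.22). The second run held 13 of these ganglionic eminence progenitor-like cells and gave no value.

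Among cells with at least 3 cycle UMIs, those with more G2 and M than S phase RNA were compared with the reverse. With the full lists Hmgb2 alone was called, 1.505-fold higher (1.39 to 1.63) in the 2409 cells with more G2 and M RNA than in the 855 others. This stood against 5.45% of 11030 genes, and no member was lower, against 5.52%. Neurons were among the cells with at least 3 full-list UMIs, namely 524 excitatory neuron-like, 433 interneuron-like and 428 migrating cells. The full-list groups are therefore not cycling progenitors alone. With the core genes Hmgb2 was 2.43-fold (2.25 to 2.63) and Hmgn5 1.53-fold (1.33 to 1.75) higher, against 4.83% of 9804 genes. The Hmgb2 difference was present in each class: 416 against 990 CPM in radial glia-like, 274 against 907 in intermediate progenitor-like, 628 against 1131 in ganglionic eminence progenitor-like and 164 against 458 in interneuron-like cells. For Hmgn5 the values were 144 against 212, 191 against 293, 98.0 against 254 and 144 against 93.4 CPM in the same order. Interneuron-like cells thus went the other way for Hmgn5, with 30 and 10 UMIs and overlapping intervals.

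**Figure D4:**
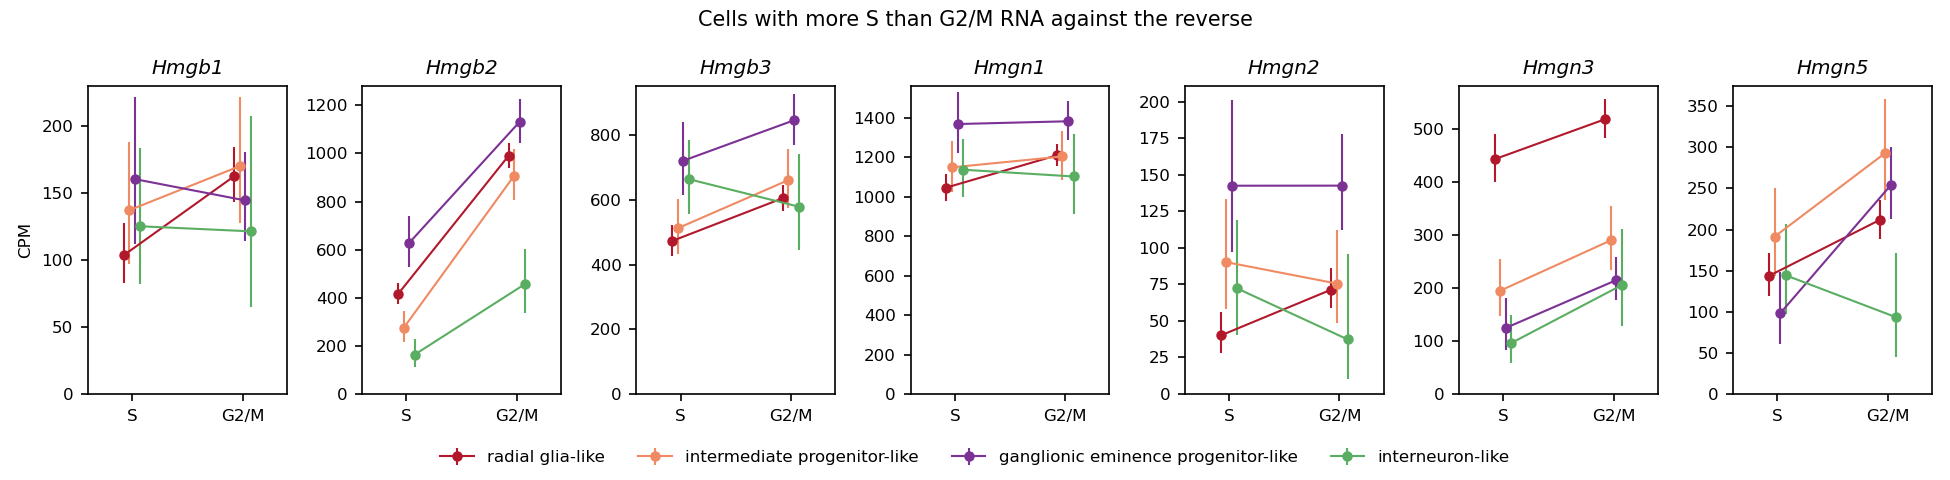
CPM of each measured HMG gene (vertical axis, from 0) in cells with more S than G2 and M core UMIs (left point) and the reverse (right point), for 4 classes (colours); bars are exact Poisson 95% intervals. Hmgb2 is higher on the right in all 4 classes, for example 416 against 990 CPM in radial glia-like cells.

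Over the 22 clusters of at least 50 cells, the Pearson correlation of log2(CPM + 10) between pairs of members ran from 0.29 (Hmgb3 with Hmgn3) to 0.93 (Hmgb2 with Hmgn2), with a median of 0.67 over 21 pairs. The clusters share libraries and depth, so these are descriptions. Among 7456 genes with at least 500 UMIs, the most similar to Hmgb2 were Smc4, Rrm1 and Dek (0.98 each), Smc4 and Rrm1 being cell cycle list genes. Those most similar to Hmgn2 were Cks1b (0.95), Sin3a and Dtl (0.94 each), to Hmgn1 Srsf3 (0.95), Nup93 and Srsf2 (0.91 each), and to Hmgn5 Ptbp1 (0.95), Tcf3 and Tgif2 (0.92 each). For Hmgn3 they were Ppap2b (0.92), Fgfr3 and Magt1 (0.91 each), for Hmgb3 Cux1 (0.91), Poldip3 and Ormdl1 (0.89 each), and for Hmgb1 D030056L22Rik, Lin9 (0.81 each) and Taf15 (0.80).

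Related genes were counted in the same comparison of radial glia-like with excitatory neuron-like cells. Of all 10369 genes measured there, 30.6% were lower and 23.8% higher in the neurons (median log2 ratio -0.14). Of 15 other HMG domain genes measured, 7 were lower and 1 higher (median log2 ratio -0.37): Hmga2, an AT hook protein of early progenitors, was 41.9-fold lower (163 and 8 UMIs) and Tox3 6.27-fold lower, while Tox was 2.20-fold higher. Of 11 linker histones and histone variants, 8 were lower and 0 higher (median -1.38), with Cenpa, the centromeric histone, 28.3-fold and H2afx, the histone phosphorylated at DNA breaks, 9.19-fold lower. Of 21 histone chaperones and acidic nuclear proteins, 15 were lower and 1 higher (median -0.87), with the chaperones Asf1b 30.3-fold and Chaf1a 8.05-fold lower and Nap1l5 7.57-fold higher. Of 3 measured receptors and partners of HMGB1, Cd24a was 4.99-fold and Cxcl12 1.69-fold higher and Cxcr4 3.401-fold lower. For comparison, 40 of 40 S phase genes and 48 of 51 G2 and M phase genes were lower (medians -3.68 and -4.77), E2f8 by 81.8-fold, Exo1 by 54.5-fold, Nusap1 by 68.3-fold and Dlgap5 by 112-fold (37.8 to 550, with 3 UMIs in the neurons). Cenpa and the chaperone list's Anp32e are also in the G2 and M phase list, and Chaf1b in the S phase list.

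The 4 unnamed clusters, kept out of all classes, spanned a wide range. Hmgb2 stood at 612 CPM in a cluster of 213 cells led by Olig2 and Olig1 and at 265 CPM in one of 143 cells led by Olig1, against 37.5 and 6.14 CPM in the other 2, led by Nts and by Crym. Hmgn3 stood at 295, 239, 190 and 172 CPM in the same order.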

How the data were processed

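The authors deposited 1 matrix of raw counts (UMIs per gene and cell, not normalized), made against mm10 per the submitters' processing notes; the sources used here name no aligner or counting tool. Depth was 1111 to 17398 UMIs per cell. Counts were normalised to 10000 per cell for clustering with scanpy 1.11.5 and leidenalg 0.10.2 (2000 variable genes, 30 principal components, 15 neighbours, resolution 1, seed 1). Doublets were kept. Class names rest on markers, and the scoring rule for names was set after the clusters had been seen. The clustering was first run in single precision; it was changed to double precision with rounded components so that a repeat gives identical output, before the members' values in the new clusters were read. The earlier form is reported as an alternative.

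UMIs were summed per class and divided by the class total (CPM). A gene was measured if it had 50 or more UMIs in both classes together, and called at 1.5-fold; ratios have exact conditional binomial 95% intervals, levels exact Poisson intervals. Cells of 1 pool are not replicates, so no p-value was computed. Thinning took 1000 UMIs per cell. The procedure was tested on simulated data. All members were named, from other lists the 2 largest changes in each direction, and for each member the 3 most similar genes. Members and lists were chosen with earlier results of these data known. The core cycle genes, their bins, the phases by class, the comparison of both progenitor regions and the promoter motifs were added after values had been seen.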

Additional observations from a re-analysis of the deposited data

How the results depend on the processing

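No paired analysis was possible because the cells cannot be assigned to samples. Of 1313 ratios of single members under other settings, 1138 stayed within the original interval, 173 moved outside it and 2 reversed; of 382 counts of members called, 352 stayed within 1.5 times.

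Between radial glia-like and excitatory neuron-like cells, the fold by which Hmgb2 was lower ranged from 30.6 to 46.1, Hmgn2 from 6.55 to 9.30, Hmgn5 from 4.41 to 6.57, Hmgn3 from 2.99 to 4.28, Hmgb3 from 2.39 to 2.82, Hmgn1 from 1.74 to 2.17 and Hmgb1 from 1.43 to 2.17. The Hmgb1 log2 ratio among cells with 0 core UMIs reversed to 0.48 at resolution 2 and 0.047 with 15 principal components, and 6 lower members became 3 at a 2-fold limit. The 2 members lower from radial glia-like to intermediate progenitor-like cells became 4 in cells with at least 2000 UMIs and 4 when clusters came from a random part of the UMIs. The 5 members lower from there to migrating cells became 3 at resolution 0.5, with members and lists allowed as features, without cycle-following genes, with clustering seed 2, without the 5% highest doublet scores, with equal weight per cell, at a 2-fold limit and when scaled by the median gene. The 2 members higher with core UMIs in radial glia-like cells became 4 at resolution 2 and with 15 components, and 1 with members and lists as features, without cycle-following genes, with seed 2, without high doublet scores and at 2-fold. The 6 members lower in interneuron-like cells became 3 at 2-fold. The 1 member higher in ganglionic eminence progenitor-like than radial glia-like cells became 3 with 15 components and 2 with single-precision clustering, clusters from a part of the UMIs, equal weight per cell or median-gene scaling. The ratio between these classes ranged from 1.05 to 1.77 for Hmgb2, 1.05 to 1.71 for Hmgb3, 1.13 to 1.29 for Hmgn1 and 1.72 to 2.63 for Hmgn2. With the core genes the 3 members higher in intermediate progenitor-like cells became 5, and the 1 higher in G2 and M became 2; the latter became 0 with equal weight per cell, at 2-fold, without Rpl and Rps genes in the total and at 2 cycle UMIs. Seed 2, single precision and the core genes were added after the data were seen. The cause of these moves was not tested. Cells with 0 core UMIs were too few for a split within ganglionic eminence progenitor-like cells (5 cells). With 1 pooled sample, animal-to-animal spread is unknown, and Hmgn2 is limited by its 611 UMIs.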
